A study of Mus musculus with 20 samples.

Results

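Chemokines are small secreted proteins that guide leukocytes, and chemokine receptors are the G protein-coupled receptors on the cells that follow them. Their genes were examined here in the translatome of epididymal adipose tissue (epiAT) adipocytes of mice that were obese or had lost weight. A gene was a member if it was protein coding in GENCODE vM21 and its symbol was Ccl, Cxcl, Ccr or Cxcr followed by a number and at most 1 letter, or was Cx3cl1, Cx3cr1, Xcl1 or Xcr1. The count table holds 46078 genes, and 62 of them were members, 44 ligands and 18 receptors, and 45 of them (29 ligands and 16 receptors) had enough reads to be tested.

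TRAP–seq sequences the mRNA held by the ribosomes of 1 cell type. All mice were AdipoERCre x NuTRAP, in which a tamoxifen-inducible Cre driven by the adiponectin (Adipoq) promoter turns on GFP-tagged ribosomes, and all of them, controls included, received tamoxifen before the diets began. C and H mice were 18 weeks old after 12 weeks of chow or HFD, and CC_s and HC mice were 26 weeks old after 8 further weeks of chow, with 3 mice in each of these groups. CC_l and HH mice were 31 weeks old after 25 weeks of chow or HFD, and CCC and HHC mice were 39 weeks old after 8 further weeks of chow, with 2 mice in each. Each HFD group (H, HH) and each weight loss (WL) group (HC, HHC) was compared with the chow group of its own age (C, CC_l, CC_s and CCC), so that no control mouse served in more than 1 comparison. Every library came from a single mouse.

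Chemokine ligands fall into CC, CXC, CX3C and XC families by the spacing of their first cysteines, and most bind several receptors. Ccl2 and its neighbours attract monocytes through Ccr2, Ccl3, Ccl4 and Ccl5 attract monocytes and T cells through Ccr1 and other receptors, and the eotaxins Ccl11 and Ccl24 attract eosinophils through Ccr3. Cxcl9 and Cxcl10 are induced by interferon-gamma and attract T cells through Cxcr3. In adipose tissue these genes are best known from obesity, in which monocytes enter the depot and become macrophages. Adipocytes, progenitors, endothelial cells and macrophages can all make ligands, whereas the receptors are mainly leukocyte genes.

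The libraries held 10710277 to 36738954 counts, and the limit that a count of 0 allows, 3 counts, lay between 0.0815 and 0.251 CPM (counts scaled to the TMM-normalized library size). Such limits cover counting error only. The 8 adipocyte markers were all detected, with summed levels of 7163 to 34227 CPM, but macrophage markers were read in every library as well and were higher in most HFD mice. The adipocyte sum was 7163 CPM in HC replicate 3, beside 29435 and 29204 CPM in the other HC mice. It was 11998 CPM in HHC replicate 1 and 29949 CPM in HHC replicate 2. C replicates 1 and 2 had 7185 and 8041 CPM, and C replicate 3 had 29483.5 CPM. The part of these differences in the results was not tested. Among the libraries that stood apart, CC_l replicate 1 carried 3114 CPM of spermatid markers and HC replicate 3 carried 434 CPM. Markers of the epididymal epithelium stood at 1818 CPM in C replicate 1, at 306, 837 and 138 CPM in the H mice, at 166 CPM in HH replicate 1 and at 104 CPM in HC replicate 2, and at most at 25.7 CPM elsewhere (1 of 5, Lcn8, was called higher in H), and their part in the H results was not tested. HHC replicate 1 was the shallowest library and had the highest sum of T and NK cell markers (127 CPM). In such bulk samples, fewer cells of a type and less RNA per cell cannot be told apart.

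More of the chemokine genes rose than fell in every comparison. A gene was called when its log2 fold change was at least 1 in size and its nominal p in edgeR's quasi-likelihood test was below 0.01, the cut-offs of the study, and p-values adjusted by Benjamini-Hochberg over all 21464 tested genes stand beside. In H against C, 7 of the 45 tested members were called higher and 0 lower, where 6.49% of all tested genes were called, 3.57% higher and 2.92% lower. In HC against CC_s, 5 were higher and 0 lower (all genes 1.74%, of which 1.57% higher and 0.172% lower). HH against CC_l had the most, with 13 higher and 1 lower (all genes 6.79%, of which 4.92% higher and 1.88% lower), and HHC against CCC the fewest, with 2 higher and 0 lower (all genes 3.12%, of which 0.447% higher and 2.67% lower). The median log2 fold change of the tested members was 0.77 in H, 0.98 in HC, 1.62 in HH and 1.06 in HHC, beside -0.15, 0.27, -0.23 and -0.06 over all genes. At an adjusted p under 0.05 there were 3 members in H (2.12% of all genes), 0 in HC (0%), 6 in HH (2.07%) and 0 in HHC (0%). At a nominal p under 0.05 there were 16 members in H (17.1% of all genes), 9 in HC (8.69%), 19 in HH (17.4%) and 9 in HHC (10.7%). DESeq2 gave 4 members in HC and 2 in HHC with an adjusted p under 0.05, and its number over all genes at that limit is not given. Calls over all genes also changed with DESeq2, from 337 higher and 37 lower to 649 and 78 in HC. In HHC they changed from 96 and 573 to 350 and 835. RLE normalization changed the split over all genes in HHC from 96 higher and 573 lower to 156 and 421.

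Single libraries moved these counts. Members called in H numbered 4 without C replicate 2 and 4 without H replicate 2. In HC they numbered 3 without CC_s replicate 1, 2 without CC_s replicate 2, 2 without CC_s replicate 3 and 1, Ccl5, without HC replicate 3. Calls over all genes moved too. In H they went from 766 higher and 626 lower to 586 and 479 without C replicate 2 and 444 and 313 without H replicate 2. In HC they went from 337 and 37 to 151 and 37 without HC replicate 3. Without CC_s replicates 1, 2 and 3 they were 191 and 26, 217 and 27, and 132 and 28. Leaving out a mouse of HH, CC_l, HHC or CCC leaves 1 mouse in its group. Calls moved there as well, both among the members and over all genes. Without HHC replicate 1 neither of the HHC calls held. Libraries outside a comparison also mattered, since without H replicate 2 or HC replicate 3 there were 4 calls in HHC.

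**Figure D1:**
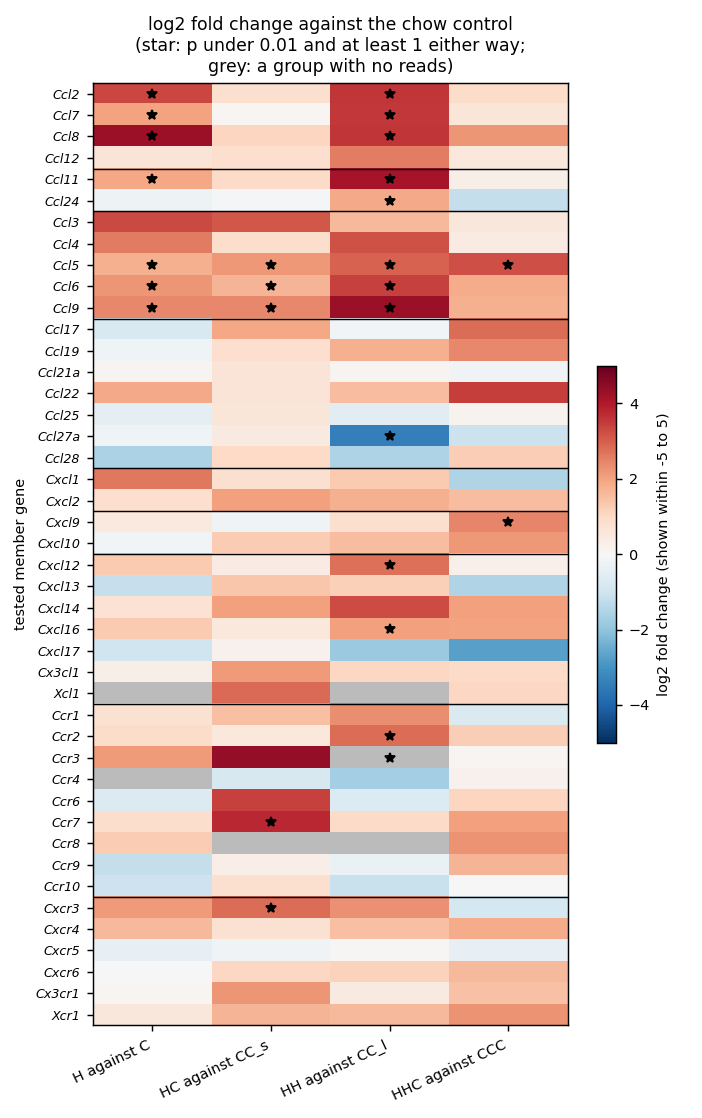
log2 fold change of 44 of the 45 tested members (rows, separated by black lines into groups by role) against its chow control in the 4 comparisons (columns). Red is higher and blue lower than the control, a star marks a called gene (7, 5, 13 and 2 from left to right), and pairs in which a group had no reads are grey. The HH column holds 13 of the stars, and Ccl5 is the one gene with a star in every column.

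Levels of different genes were compared per kilobase of exon (CPM per kb). Over all 20 libraries the ligands with the highest mean levels were Ccl8 (123 CPM per kb), Ccl6 (66.7), Ccl7 (46.6), Ccl11 (41.6) and Ccl9 (31.4). In the chow groups alone, Ccl8 (25.2), Ccl7 (24.6) and Ccl6 (22.4) also came first, followed by Ccl11 (16.9), Ccl21a (12.5), Cxcl12 (11.4) and Cxcl9 (11.2). Receptors were lower, with Ccr2 at 6.57 CPM per kb over all libraries, Cxcr4 at 3.08 and Cxcr6 at 2.01. Among the 17 members that were not tested, 9 were copies on unplaced scaffolds or second copies of Ccl19, Ccl21 and Ccl27 genes on chromosome 4 that had 0 counts in all libraries, and Cxcr1, a receptor of neutrophils, had 0 as well. Ccl1 (72 counts over all libraries), Cxcr2 (48), Cxcl5 (28), Cxcl3 (16), Ccl20 (12), Ccl26 (5) and Cxcl15 (4) had too few reads. Cxcl11, the third ligand of Cxcr3, is annotated as a polymorphic pseudogene and was no member.

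The CC ligands that were called in H lie in 2 clusters on chromosome 11 (mm10). Ccl2 (chr11:82035571-82037453), Ccl7, Ccl11, Ccl12 and Ccl8 (chr11:82115185-82116799) follow each other on the plus strand. Ccl5 (chr11:83525778-83530518), Ccl9, Ccl6, Ccl3 and Ccl4 (chr11:83662584-83664683) form the other. Stretches upstream of the start sites are shown for the called genes of these clusters that are in the RefSeq promoter table (GRCm38.p6), and for Cxcl9 and Ccr3, with matches to an NF-kappaB type motif (either strand) and to TATAAA (either strand) in capitals. Counted from the start site, the 80 bases of Ccl8 and Ccl6 begin at -80, the 100 bases of Ccl9 at -110, the 60 bases of Cxcl9 at -150 and the 60 bases of Ccr3 at -200. In Ccl9 TATAAA overlaps its own reverse complement.
Ccl8 (chr11:82115105-82115184, plus strand): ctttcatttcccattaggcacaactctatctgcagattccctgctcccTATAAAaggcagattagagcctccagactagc
Ccl9 (chr11:83578647-83578746, minus strand): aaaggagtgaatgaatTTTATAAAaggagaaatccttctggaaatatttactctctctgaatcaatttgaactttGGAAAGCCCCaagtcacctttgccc
Ccl6 (chr11:83593088-83593167, minus strand): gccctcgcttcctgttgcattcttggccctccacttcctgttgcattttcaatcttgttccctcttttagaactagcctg
Cxcl9 (chr5:92328170-92328229, minus strand): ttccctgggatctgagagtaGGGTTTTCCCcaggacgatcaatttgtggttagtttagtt
Ccr3 (chr9:124021771-124021830, plus strand): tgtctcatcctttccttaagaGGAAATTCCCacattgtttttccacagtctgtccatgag

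The NF-kappaB type motif was found in 4.79% of all 32851 windows of the table, which run from 250 bases before to 50 bases after a start site, and TATAAA in 13.6%. The 41 member symbols with a window had 48 windows, of which 10 held the first motif and 12 the second. A STAT type motif was found in 8.3% of all windows and in 3 of the 48. The genes with the NF-kappaB type motif were Ccl9, Ccl19, Ccl20, Ccr3, Ccr6, Cxcl1, Cxcl2, Cxcl3, Cxcl9 and Cxcl10, of which Ccl9, Cxcl9 and Ccr3 were called in a comparison. A match is a string of letters and not a measured binding site.

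The monocyte chemoattractant proteins Ccl2, Ccl7 and Ccl8 rose in H and again in HH, and none of them passed the cut-offs after WL. For Ccl8, which in mice also acts on Ccr8, the H mice stood at 64.0, 313 and 33.5 CPM (replicates 1 to 3) and the C mice at 10.0, 5.76 and 5.28. Every H mouse was above every C mouse, and H replicate 2 was far above the rest (log2 fold change 4.29 ± 0.80 (SE), adjusted p = 0.0110). Without H replicate 2 the log2 fold change was 2.80 and the gene was still called. Ccl2, the main ligand of Ccr2, was read at 50.6, 93.9 and 21.4 CPM in H and at 7.52, 4.91 and 3.76 in C, without overlap (log2 fold change 3.36 ± 0.76 (SE), adjusted p = 0.0300). Ccl7, a further Ccr2 ligand, stood at 64.9, 107 and 34.8 CPM in H and 19.2, 6.05 and 26.2 in C (log2 fold change 2.01 ± 0.59 (SE), adjusted p = 0.0863). The lowest H mouse was only slightly above the highest C mouse, and the call of Ccl7 was lost without C replicate 2 (1.60) and H replicate 2 (1.54) and in a fit of the H and C mice by themselves (1.93).

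After 25 weeks of HFD Ccl2, Ccl7 and Ccl8 were called as well. The HH mice had 63.2 and 61.8 CPM of Ccl2 and the CC_l mice 0.976 and 9.69 (log2 fold change 3.57 ± 0.94 (SE), adjusted p = 0.0584). Ccl7 stood at 84.2 and 82.2 CPM in HH and 2.56 and 11.9 in CC_l (log2 fold change 3.53 ± 0.77 (SE), adjusted p = 0.0292). Both HH mice were far above both CC_l mice for these 2 genes, and the CC_l mice differed widely between themselves. Ccl8 stood at 92.2 and 366 CPM in HH and 12.1 and 26.2 in CC_l (log2 fold change 3.58 ± 0.95 (SE), adjusted p = 0.0584). The groups did not overlap, although HH replicate 2 was well above HH replicate 1. The call of Ccl2 was lost without CC_l replicate 1 (2.70) and in a fit of the HH and CC_l mice by themselves (3.70), its value rose to 6.02 without CC_l replicate 2, and that of Ccl8 was lost without CC_l replicate 1 (3.14) and HH replicate 2 (2.29). Ccl12, the fourth member of this group, stood at 9.35 and 13.8 CPM in HH and 2.47 and 1.44 in CC_l and was not called in any comparison.

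Mice after WL were nearer to their chow controls for these ligands. Ccl2 stood at 11.4, 6.83 and 9.22 CPM in HC and 8.21, 4.42 and 3.30 in CC_s, with overlapping ranges. Ccl7 stood at 25.6, 14.9 and 13.0 CPM in HC and 24.0, 17.0 and 9.63 in CC_s, which also overlapped. Ccl8 was 18.6, 11.8 and 24.9 CPM in HC and 9.13, 9.83 and 7.10 in CC_s, where every HC mouse was above every CC_s mouse but the change was not called (log2 fold change 1.08 ± 0.71 (SE), adjusted p = 0.663). Tested as interactions, the HC effect was smaller than the H effect for Ccl8 (difference in log2 fold change -3.21 ± 1.02 (SE), adjusted p = 0.325), Ccl2 (-2.57 ± 1.00 (SE), adjusted p = 0.353) and Ccl7 (-1.92 ± 0.81 (SE), adjusted p = 0.369). None of these passed the adjustment, although all 3 had a nominal p under 0.05, and the Ccl8 difference shrank to -1.72 without H replicate 2. In the long arm Ccl8 stood at 159.9 and 39.0 CPM in HHC and 27.2 and 16.1 in CCC, and Ccl2 at 32.5 and 6.25 and 7.05 and 13.7. HHC replicate 1 was the higher HHC mouse for both, and HHC replicate 2 lay below both CCC mice for Ccl2. Ccl7 stood at 79.1 and 44.4 CPM in HHC and 38.1 and 42.0 in CCC, and both CCC mice were above every other chow mouse.

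**Figure D2:**
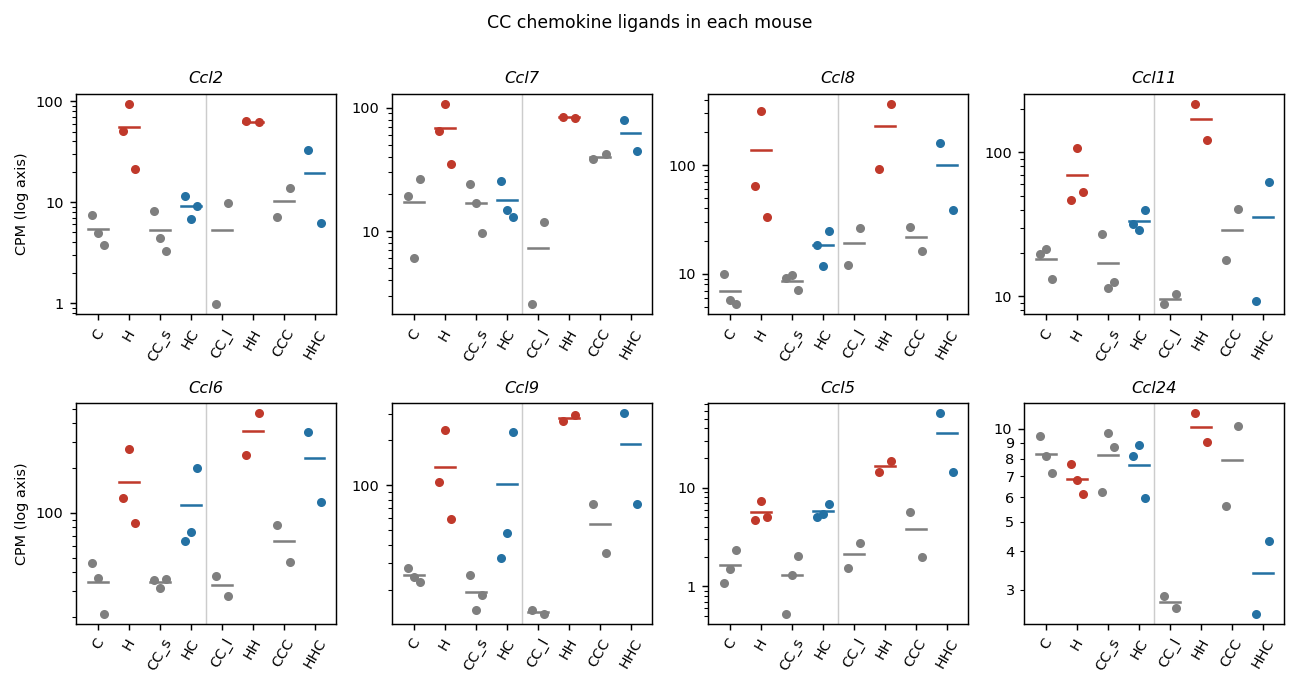
Level of 8 CC ligands in each mouse (points, CPM on a log axis) in the 8 groups, with the group mean as a line. Chow groups are grey, HFD groups red and WL groups blue, and a grey vertical line separates the short from the long arm. Ccl2, Ccl7 and Ccl8 were high in H and HH, Ccl5 was above the controls in all 4 comparisons, and Ccl24 had the opposite order in HH and HHC.

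Of the eotaxins, Ccl11 rose in both HFD groups, and Ccl24 moved in opposite directions in HH and HHC. Ccl11 stood at 47.0, 108 and 52.8 CPM in H and 19.7, 21.4 and 13.3 in C (log2 fold change 1.93 ± 0.56 (SE), adjusted p = 0.0843). In HH it stood at 217 and 122 CPM against 8.84 and 10.3 in CC_l (log2 fold change 4.14 ± 0.76 (SE), adjusted p = 0.0187). No mouse overlapped with the control group in either comparison, but the H call was lost without C replicate 3 (1.75) and H replicate 2 (1.46). In HC the gene stood at 31.7, 29.1 and 39.6 CPM against 27.0, 11.5 and 12.6 in CC_s, where every HC mouse was above every CC_s mouse and the change was not called (log2 fold change 0.98 ± 0.55 (SE), adjusted p = 0.609). In HHC it stood at 9.22 and 62.4 CPM against 17.8 and 40.3 in CCC. The HHC mice lay on either side of the CCC mice. The difference between the HHC and the HH effect on Ccl11 was -3.84 ± 0.98 (SE), adjusted p = 0.0749, and -5.82 without HHC replicate 2.

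Ccl24, which macrophages also make, stood at 11.2 and 9.08 CPM in HH and only 2.87 and 2.62 in CC_l (log2 fold change 1.88 ± 0.49 (SE), adjusted p = 0.0539). In HHC it stood at 2.51 and 4.31 CPM and in CCC at 5.62 and 10.2, so that both HHC mice were below both CCC mice, and this change was not called (log2 fold change -1.21 ± 0.48 (SE), adjusted p = 0.381). The difference between the 2 effects was -3.09 ± 0.68 (SE), adjusted p = 0.0422, which in edgeR's quasi-likelihood test made Ccl24 the only member in any of the 4 interactions with an adjusted p below 0.05, where 0.815% of all genes passed for this interaction. The 2 CC_l mice were the lowest chow mice for Ccl24, since the C mice stood at 9.48, 8.14 and 7.16 CPM and the CC_s mice at 6.22, 9.67 and 8.75. In the short arm H (7.68, 6.80 and 6.14 CPM) and HC (8.18, 8.83 and 5.95 CPM) overlapped with their controls. The HH call was lost without CC_l replicate 2 (1.85) and HH replicate 1 (1.74) and without the filter on low counts (1.97), and the HHC value was -0.72 without CCC replicate 2. The interaction no longer passed the adjustment without 15 of the 20 libraries left out in turn, C replicates 1 and 2, H replicates 1, 2 and 3, CC_s replicates 2 and 3, HC replicate 2 and all of CC_l, HH and HHC and CCC replicate 2, with values between -3.56 and -2.62. It also did not pass with RLE normalization (-2.94), without the filter (-3.13), with only the compared groups (-2.88) and with halved counts (-2.87).

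Ccl5, Ccl6 and Ccl9, ligands of Ccr1 from the second cluster, were the members called most often, and Ccl5 was called in all 4 comparisons. Ccl5, a product of T cells and of other cells, stood at 4.71, 7.26 and 5.09 CPM in H and 1.09, 1.49 and 2.33 in C (log2 fold change 1.79 ± 0.58 (SE), adjusted p = 0.120). After WL the HC mice stood at 5.09, 5.38 and 6.89 CPM and the CC_s mice at 0.530, 1.31 and 2.03 (log2 fold change 2.16 ± 0.59 (SE), adjusted p = 0.536). The H and the HC mice had like levels, each well above its own controls. In the long arm HH stood at 14.6 and 18.5 CPM and CC_l at 1.52 and 2.75 (log2 fold change 2.96 ± 0.74 (SE), adjusted p = 0.0465). HHC stood at 56.8 and 14.5 CPM and CCC at 5.62 and 1.98 (log2 fold change 3.23 ± 0.74 (SE), adjusted p = 0.171). No group overlapped with its control, and the highest mouse of all was HHC replicate 1. The calls of Ccl5 were lost in H without C replicate 1 (1.63), C replicate 2 (1.72), H replicate 2 (1.58) and H replicate 3 (1.87) and with the compared groups by themselves (1.71), in HC without CC_s replicate 1 (1.79), in HH without CC_l replicate 1 (2.60) and in HHC without CCC replicate 2 (2.66) and HHC replicate 1 (1.93).

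Ccl6, a ligand of Ccr1 made by macrophages, stood at 125, 269.6 and 86 CPM in H and 46.2, 36.4 and 21.1 in C (log2 fold change 2.21 ± 0.55 (SE), adjusted p = 0.0478). In HC it stood at 64.5, 73.9 and 198 CPM and in CC_s at 35.2, 31.2 and 36.3 (log2 fold change 1.71 ± 0.54 (SE), adjusted p = 0.536). Neither comparison had an overlap, and HC replicate 3 was well above the other HC mice. In HH it stood at 246 and 464 CPM and in CC_l at 37.8 and 27.8 (log2 fold change 3.44 ± 0.71 (SE), adjusted p = 0.0253). In HHC it stood at 349 and 118 CPM and in CCC at 82.6 and 46.8, apart from each other but not called (log2 fold change 1.85 ± 0.67 (SE), adjusted p = 0.338), and the value was 0.86 without HHC replicate 1. The calls in H and HH held whichever library was left out, and that in HC was lost without C replicate 1 (1.64), CC_s replicate 1 (1.73), CC_s replicate 2 (1.65), CC_s replicate 3 (1.76) and HC replicate 3 (1.01).

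Ccl9, a further ligand of Ccr1, followed the same order. It stood at 104, 235 and 59.0 CPM in H and 28.1, 24.3 and 22.4 in C (log2 fold change 2.41 ± 0.68 (SE), adjusted p = 0.0738), and at 32.6, 47.9 and 227 CPM in HC and 25.2, 14.7 and 18.5 in CC_s (log2 fold change 2.40 ± 0.68 (SE), adjusted p = 0.536). HC replicate 3 again stood far above the other HC mice. In HH it stood at 268 and 295 CPM and in CC_l at 14.6 and 13.9 (log2 fold change 4.31 ± 0.91 (SE), adjusted p = 0.0264). The HHC mice stood at 301 and 74.6 CPM and the CCC mice at 74.2 and 35.3 (log2 fold change 1.78 ± 0.81 (SE), adjusted p = 0.448), and HHC replicate 2 was only just above the higher CCC mouse. Without HHC replicate 1 the value was 0.44. The H call of Ccl9 was lost without C replicate 2 (2.39), C replicate 3 (2.34) and H replicate 2 (1.71), and the HC call without CC_s replicate 2 (2.23), CC_s replicate 3 (2.36) and HC replicate 3 (1.04) and with the compared groups by themselves (2.41). Ccl3 and Ccl4, the other genes of this cluster, were at most 11.1 and 13.9 CPM, both in HH replicate 2, and were not called in any comparison.

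Among the CXC and CX3C ligands, Cxcl12 and Cxcl16 rose in HH, and Cxcl9 was called in HHC, where 1 mouse stood far above all others. Cxcl12, the ligand of Cxcr4 and mainly a stromal gene, stood at 290.0 and 278 CPM in HH and 29.0 and 54.1 in CC_l (log2 fold change 2.77 ± 0.73 (SE), adjusted p = 0.0584). In H it stood at 221, 387 and 237 CPM and in C at 124, 134 and 79.8, without overlap and without a call (log2 fold change 1.32 ± 0.57 (SE), adjusted p = 0.243). In HC (50.4, 113 and 263 CPM) and CC_s (179.5, 53.1 and 85.3 CPM) the ranges overlapped, as they did in HHC (163 and 71.2 CPM) and CCC (66.4 and 129 CPM). The HH call of Cxcl12 was lost without CC_l replicate 1 (2.40). Cxcl16, a membrane-bound ligand of Cxcr6, stood at 34.7 and 48.9 CPM in HH and 7.59 and 12.4 in CC_l (log2 fold change 2.07 ± 0.71 (SE), adjusted p = 0.140). Both HH mice were above both CC_l mice, but the gene shares 552 exon bases with Zmynd15 on the opposite strand and its call was lost without 12 of the 20 libraries in turn (C replicate 2, H replicates 1, 2 and 3, CC_s replicates 1, 2 and 3, HC replicate 2 and all of CC_l and HH, values 1.76 to 2.49), with RLE normalization (2.08) and with halved counts (2.05). Elsewhere Cxcl16 stood at 28.1, 43.0 and 22.0 CPM in H and 19.1, 10.0 and 8.15 in C, at 10.5, 12.6 and 29.4 in HC and 15.4, 9.22 and 11.8 in CC_s, and at 99.7 and 14.9 in HHC and 11.9 and 16.4 in CCC. HHC replicate 1 had the highest level of all mice.

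Cxcl9 stood at 417 and 36.8 CPM in HHC and 48.3 and 35.1 in CCC (log2 fold change 2.44 ± 0.71 (SE), adjusted p = 0.276). The 2 HHC mice differed by far more than any other pair, HHC replicate 2 lay between the CCC mice, and without HHC replicate 1 the log2 fold change was -0.19. The call was also lost without CCC replicate 1 (2.69), without CCC replicate 2 (2.23) and in a fit of the HHC and CCC mice by themselves (2.61). In the other groups Cxcl9 lay between 17.6 and 64.0 CPM, with 64.0 and 63.4 in HH and 29.7 and 42.7 in CC_l, 31.6, 42.7 and 37.2 in H and 17.6, 19.5 and 43.3 in C, and 25.3, 32.2 and 32.02 in HC and 27.3, 30.6 and 42.7 in CC_s. Cxcl10 likewise stood at 63.3 and 3.12 CPM in HHC and 4.18 and 10.8 in CCC. The 6 interferon genes listed beside these ligands summed to 975 CPM in HHC replicate 1 and 161 to 514 CPM in all other libraries. Ifngr1 was not raised in that mouse, at 95.4 CPM beside 98.3 in HHC replicate 2 and 96.0 and 204 in CCC. In HHC 5 of the 6 had a log2 fold change above 0 and 3 were called higher, Irf1 and Irf7 among them. Ifng stood at 3.69 CPM in HHC replicate 1 and at most 0.454 CPM in any other library. Their part in the result was not tested.

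Cx3cl1, the membrane-bound ligand of Cx3cr1, stood at 0.492 to 13.4 CPM over all libraries and was not called. The neutrophil-attracting Cxcl1 and Cxcl2 reached 5.00 and 8.88 CPM, in H replicate 2 and HHC replicate 1, and were not called either. Of the 7 tested CC ligands of lymphoid tissue and barrier sites, Ccl27a was called. It stood at 2.01 and 3.91 CPM in HH and 47.8 and 15.3 in CC_l (log2 fold change -3.42 ± 0.70 (SE), adjusted p = 0.0253), and was the single member called lower. CC_l replicate 1 was the highest of all mice, and without it the log2 fold change was -2.36 and still called. The same library carried 3114 CPM of spermatid markers against 9.04 CPM in CC_l replicate 2, and their part in the Ccl27a result was not tested. Ccl27a, a ligand of Ccr10, shares 45.0% of its 50-base words with the copy Gm20878, so that its counts are uncertain. In the other groups it stood between 2.01 and 12.5 CPM. Ccl21a, a ligand of Ccr7 in lymph vessels, was the highest of this group per kilobase and stood between 3.04 and 32.1 CPM, but shares 71.6% of its words with Gm21541.

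**Figure D3:**
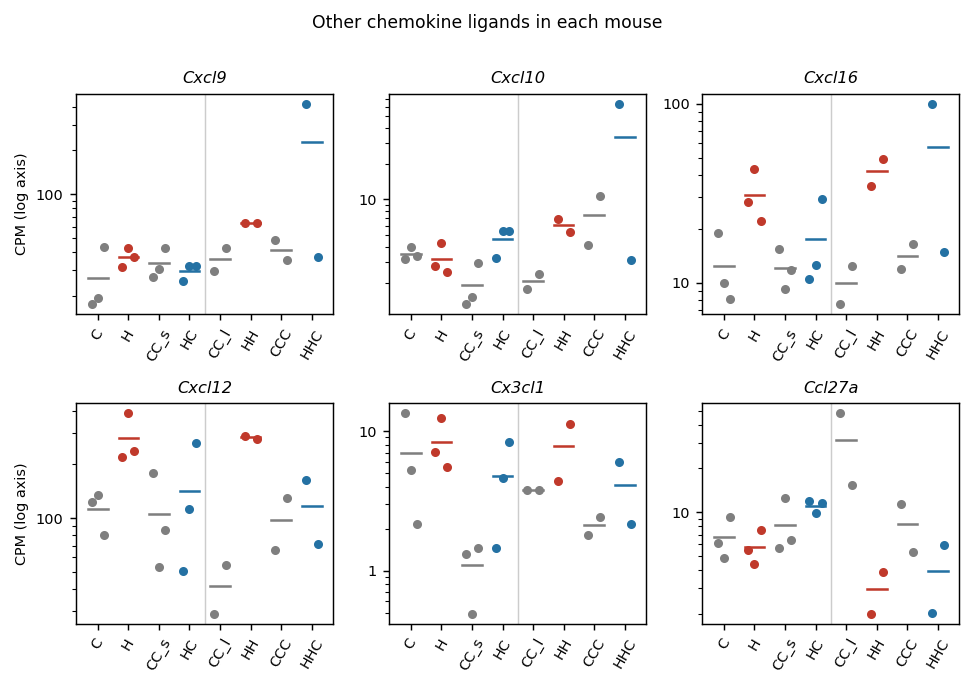
Level of 6 further ligands in each mouse (points, CPM on a log axis) in the 8 groups, with the group mean as a line. Chow groups are grey, HFD groups red and WL groups blue. HHC replicate 1 stood far above all other mice for Cxcl9 and Cxcl10, Cxcl12 and Cxcl16 were higher in HH than in CC_l, and Ccl27a was highest in CC_l.

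Of the 16 tested receptors 0 were called in H, 2 in HC (Ccr7 and Cxcr3), 3 in HH (Ccr2 and Ccr3 among them) and 0 in HHC. The shares called over all tested genes were 6.49%, 1.74%, 6.79% and 3.12% in the same order. In edgeR's quasi-likelihood test 3 receptors in H (17.1% of all genes) and 1 in HHC (10.7%) had a nominal p under 0.05. DESeq2 called 1 receptor (Cxcr3) in H and 0 in HHC. Over all genes it called 928 higher and 1235 lower in H and 350 and 835 in HHC. Ccr2, the receptor of Ccl2 on monocytes, stood at 83.9 and 71.8 CPM in HH and 10.1 and 12.6 in CC_l (log2 fold change 2.78 ± 0.83 (SE), adjusted p = 0.0944). Both HH mice were far above both CC_l mice. The call of Ccr2 was lost without CC_l replicate 1 (2.64), CC_l replicate 2 (2.98) and HH replicate 1 (2.68).

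In the short arm Ccr2 stood at 61.9, 129.8 and 36.9 CPM in H and 54.1, 49.5 and 18.1 in C, and at 11.9, 21.2 and 41.2 in HC and 18.8, 15.0 and 17.2 in CC_s. Both comparisons overlapped, and the C mice were above the CC_s mice except for C replicate 3, which lay among them. In the long arm after WL, Ccr2 stood at 146 and 18.4 CPM in HHC and 20.8 and 48.7 in CCC. HHC replicate 1 was above and HHC replicate 2 below both CCC mice.

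Ccr3, the eotaxin receptor of eosinophils, had 0 counts in both CC_l mice and stood at 1.64 and 6.27 CPM in HH (adjusted p = 0.134). The HH mean was 27.5-fold above the mean limit of 3 counts in the CC_l libraries (0.0915 and 0.196 CPM). HH replicate 1 lay nearer to that limit, which takes reads as independent although they are not. The call was lost without C replicate 1, H replicates 1 and 3, HC replicate 2, CC_l replicates 1 and 2 and HH replicate 2, each in turn. It stood at 0.380, 1.58 and 0.288 CPM in H, 0.109, 0.397 and 0 in C, 0, 0.482 and 2.38 in HC, 0.132, 0 and 0 in CC_s, 0.670 and 0.108 in HHC and 0.717 and 0 in CCC. Most of these values were near the limit of detection. The 5 eosinophil and mast cell markers summed to 10.6 and 56.2 CPM in HH and 2.29 and 6.55 in CC_l, 0 of the 3 tested were called in any comparison, Epx had 0 counts in HH and Siglecf in CC_l, and their part in the Ccr3 result was not tested.

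A pair of receptors of T cells and dendritic cells were called in HC. Ccr7, which guides them to lymph nodes, stood at 0.825, 1.77 and 8.03 CPM in HC and 0.397, 0.246 and 0.127 in CC_s (log2 fold change 3.76 ± 1.04 (SE), adjusted p = 0.536). The CC_s values rested on 6, 6 and 2 counts, HC replicate 3 was well above the other HC mice, and the call was lost without CC_s replicate 3 (3.45) and HC replicate 3 (2.31). Cxcr3, the receptor of Cxcl9 and Cxcl10, stood at 1.31, 0.562 and 2.08 CPM in HC and 0.132, 0.164 and 0.254 in CC_s (log2 fold change 2.81 ± 0.79 (SE), adjusted p = 0.536). Its CC_s values rested on 2, 4 and 4 counts, and the call was lost without CC_s replicate 1 (2.64), CC_s replicate 2 (2.73) and HC replicate 3 (2.31), without the filter on low counts (2.95) and with the compared groups by themselves (2.81).

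Ccr7 stood at 1.29, 2.34 and 2.59 CPM in H and 1.85, 0.992 and 0.537 in C, at 3.65 and 2.18 in HH and 2.44 and 0.524 in CC_l, and at 11.4 and 2.15 in HHC and 0.717 and 2.53 in CCC. Cxcr3 stood at 0.989, 2.99 and 0.480 CPM in H and 0.436, 0.298 and 0.269 in C, at 6.93 and 5.99 in HH and 1.34 and 1.31 in CC_l, and at 1.84 and 2.15 in HHC and 3.58 and 3.84 in CCC. All mice of the H and HH groups were above their controls for Cxcr3, and both HHC mice were below the CCC mice. The difference between the HHC and the HC effect on Cxcr3 was -3.70 ± 1.18 (SE), adjusted p = 0.343, which did not pass the adjustment. The 8 T and NK cell markers summed to 6.46 to 29.6 CPM in HC and 2.25 to 7.73 in CC_s (1 of 8 called, Gzma), to 47.3 and 43.1 in HH and 10.1 and 18.5 in CC_l (1 of 8, Trac), where Ccl5 and Cxcr3 were higher too, and to 20.1 and 127 in HHC and 12.1 and 15.1 in CCC (1 of 8, Trac). Their sums overlapped between H (12.6, 27.3 and 7.97 CPM) and C (11.9, 7.15 and 7.16 CPM). There 0 of the 8 were called, whereas Ccl5 was called higher. None of the 8 was at 0 throughout a group, and their part was not tested. Spermatid markers, of which 3 of 5 were called higher in HC, moved with HC replicate 3 as well.

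Cxcr4, the receptor of Cxcl12 and the second highest receptor per kilobase, was not called. It stood at 8.44, 7.56 and 11.1 CPM in H and 4.68, 3.77 and 0.448 in C, at 0.344, 3.53 and 21.3 in HC and 9.002, 2.54 and 3.17 in CC_s, at 3.88 and 7.17 in HH and 1.65 and 2.23 in CC_l, and at 14.4 and 1.72 in HHC and 2.63 and 1.87 in CCC. H and HH did not overlap with their controls, whereas the HC mice ranged from below to above all CC_s mice. Cxcr6, the receptor of Cxcl16, and Cx3cr1, the fractalkine receptor, were at most 19.3 and 10.9 CPM, both in HHC replicate 1. Ccr4, Ccr6, Ccr8, Ccr9 and Ccr10 stayed at or under 5.03 CPM in every library, and Xcl1, the ligand of Xcr1, at or under 0.922 CPM.

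**Figure D4:**
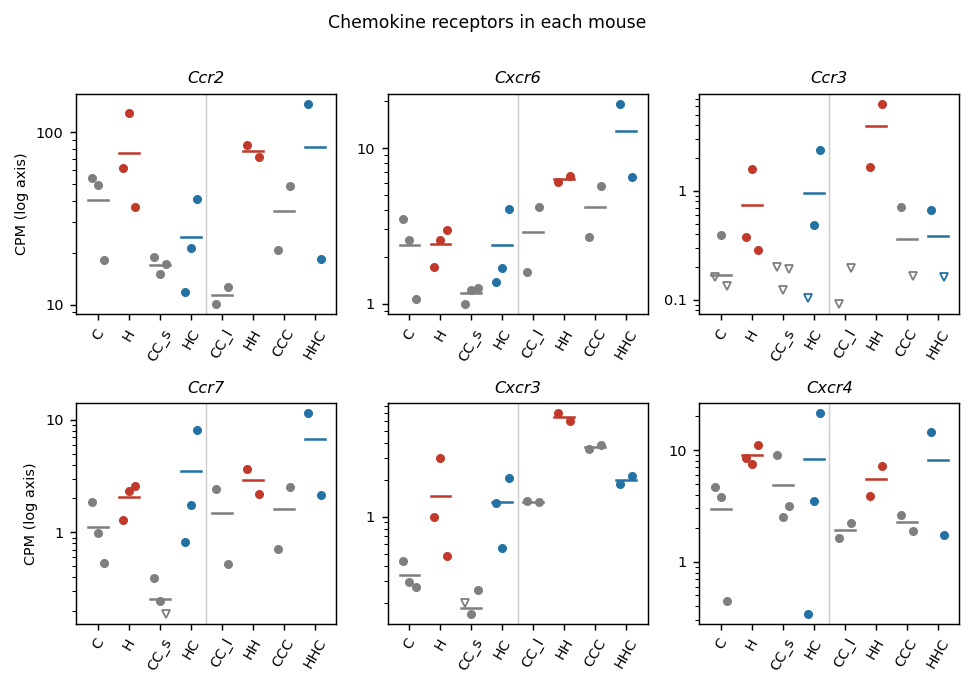
Level of 6 receptors in each mouse (points, CPM on a log axis) in the 8 groups, with the group mean as a line where it exceeds the mean limit of 3 counts. Open triangles are libraries under 3 counts, drawn at that limit. Ccr2 and Ccr3 were higher in HH than in CC_l, and Ccr7 and Cxcr3 were lowest in CC_s.

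Markers of other cells moved with many of these genes. Of the 13 macrophage markers 8 were called higher in H, 7 in HC, 12 in HH and 0 in HHC, where Cd163 was called lower. Their sum was 1726, 3958 and 781 CPM in H and 488, 483 and 277 in C, 669.7, 705 and 1820.3 in HC and 391, 314 and 303 in CC_s, 4082 and 5481 in HH and 303 and 463 in CC_l, and 2021 and 867 in HHC and 927 and 1100.5 in CCC. The 7 lipid-associated macrophage markers gave 6, 5, 2 and 0 calls in the same order, all higher. In HHC, 1 macrophage marker and 0 lipid-associated ones had a nominal p under 0.05. H replicate 2, HC replicate 3 and HHC replicate 1 had the highest macrophage sums of their groups, and these 3 mice also had the highest Ccl6, Ccl9 and Ccr2 of their groups. In HH, replicate 2 had the higher macrophage sum and the higher Ccl6 and Ccl9. Its Ccr2 was the lower one, at 71.8 CPM against 83.9 CPM in HH replicate 1. No macrophage marker was at 0 throughout a group, and the part of macrophage mRNA in these results was not tested.

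Of the 6 endothelial markers, 4 were called higher in H, 0 in HC and 6 in HH, and 2 were called lower in HHC. Their sum was 1088 to 1582 CPM in H and 228 to 546 in C, 711 and 1338 in HH and 134 and 148 in CC_l, and 72.6 and 91.9 in HHC and 231 and 481 in CCC. The 6 progenitor markers gave 2, 1, 4 and 0 calls, all higher, and their sum was 3334 and 5408 CPM in HH and 382 and 619.7 in CC_l. The progenitor sums overlapped between H (1334, 3178 and 862 CPM) and C (1346, 1323 and 568 CPM). Cxcl12 and Ccl11 were higher in H and HH, and the part of endothelial and progenitor cells was not tested. Adipocyte markers summed to 10683 and 12806 CPM in HH and 25623 and 34227 in CC_l, with 0 of 8 called by edgeR's quasi-likelihood test and 1 at a nominal p under 0.05.

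**Figure D5:**
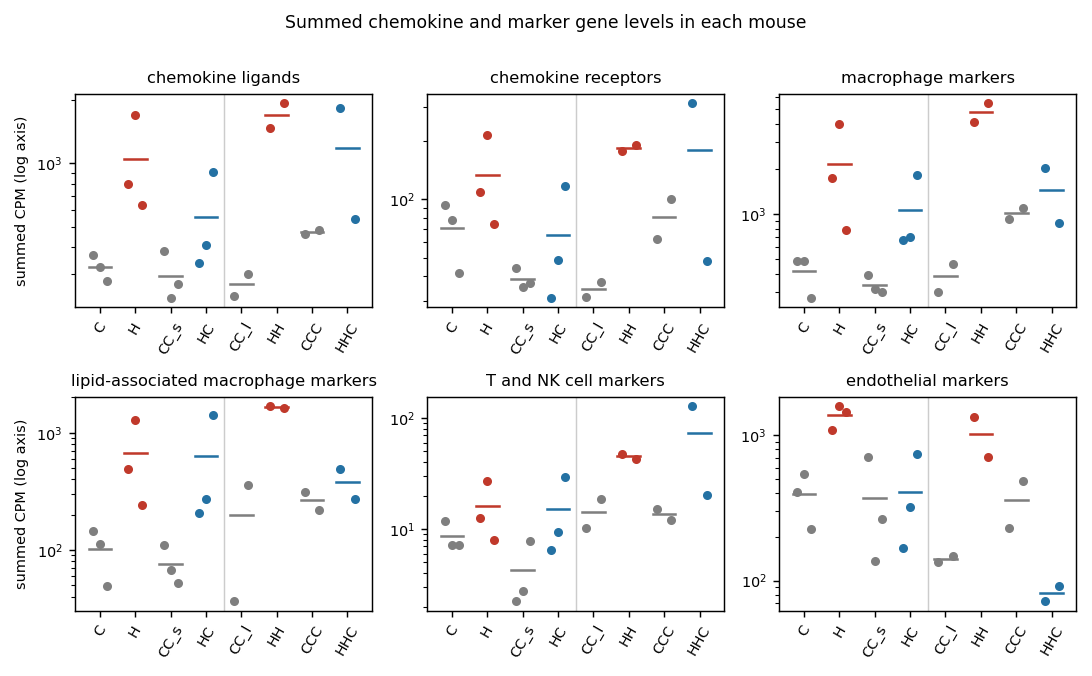
Summed level of the chemokine ligands, the chemokine receptors and 4 lists of marker genes in each mouse (points, CPM on a log axis) in the 8 groups, with the group mean as a line. The ligand sum and the macrophage markers were both high in H and HH, and HC replicate 3 and HHC replicate 1 stood above the other mouse or mice of their groups in both.

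Genes that act downstream of or upstream of chemokines were read from fixed lists. Of 22 genes of chemokine receptor signalling 21 were tested, of which the H, HC, HH and HHC comparisons called 5, 3, 6 and 2 higher and 0 lower. Lyn, a Src family kinase, rose in H (log2 fold change 1.90 ± 0.35 (SE), adjusted p = 0.00991) and HH (log2 fold change 2.67 ± 0.44 (SE), adjusted p = 0.0145), Gngt2, a G protein gamma subunit, in H (log2 fold change 2.35 ± 0.44 (SE), adjusted p = 0.0111), HH and HHC, and Rgs1, a regulator of G protein signalling, in H (log2 fold change 4.77 ± 1.16 (SE), adjusted p = 0.0419), HC and HH. Dock2, a Rac activator of leukocytes, rose in H, HC and HH, with log2 fold changes of 1.45 ± 0.49, 2.43 ± 0.51 and 2.28 ± 0.61 (SE). Several of these genes are leukocyte genes themselves. None of the 10 NF-kappaB and cytokine genes, which include Tnf, Il1b and Nfkbia, was called in any of the 4 comparisons by edgeR's quasi-likelihood test, with 2, 0, 0 and 0 at a nominal p under 0.05 in H, HC, HH and HHC.

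The difference between effects was tested for all members in 4 interactions. For HC against H, 5 members had a nominal p under 0.05 (11.8% of all genes) and 0 passed the adjustment (0%). For HH against H the counts were 4 (5.79%) and 0 (0%), and for HHC against HC 3 (11.8%) and 0 (0%). DESeq2 gave 0, 1 and 0 members with an adjusted p under 0.05, and its share over all genes is not given. For HHC against HH, 10 members had a nominal p under 0.05 (15.5% of all genes) and Ccl24 passed. In that interaction the effect on 9 members was lower in HHC than in HH, Ccl24, Ccl11, Ccl9, Ccl7, Ccl2, Cxcl12, Ccr1, Ccr3 and Cxcr3, and that on Ccl27a was higher. For HH against H, Ccl27a (-3.19 ± 0.85 (SE), adjusted p = 0.848) and Ccl24 (2.15 ± 0.62 (SE), adjusted p = 0.848) had the smallest nominal p among the members. A change called in 1 comparison and not in another is therefore not shown to differ between them for any other member.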

How the data were processed

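Per the labels and the study's methods, the authors checked reads with FastQC 0.11.9, trimmed them with Trim Galore 0.6.6, aligned them to mm10 with HISAT2 2.2.1 and counted them on genes with featureCounts (Subread 2.0.1). They deposited whole-number read counts per gene and mouse, without normalization. The gene annotation, strand setting and handling of pairs are not given in the sources used here. Of the nonzero counts up to 10, 89.6% to 95.8% were even, the pattern left by counting both ends of a pair, and counts by themselves do not give the number of fragments. Reads are not independent molecules here.

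Symbols, positions and exon lengths came from GENCODE vM21 (45229 of 46078 genes matched, 98.2%), promoter windows from RefSeq. The members and gene lists were chosen with earlier results of these data known. Values were given in every mouse for members called in at least 1 comparison, the 3 ligands and 3 receptors with the highest mean CPM per kb, and members whose interaction passed. Genes outside the members came from the lists. The values of 1 member and of 1 gene of the lists are not reported here, and both are kept in the counts, sums and fits.

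The counts were tested with edgeR 4.0.16 in R 4.3.3 (filterByExpr, TMM, quasi-likelihood fit). A single fit of all 20 libraries in 8 groups was used, with a biological coefficient of variation of 0.680 and 5.29 prior degrees of freedom. Interactions were contrasts between effects. p-values were adjusted by Benjamini-Hochberg over 21464 genes. CPM used the TMM-scaled library sizes. No 2 libraries were identical. The main fit was tested on simulated counts with changes in H against C alone, in genes not at low counts. Comparisons between groups of 2 mice, interactions and genes at low counts were not covered by it. The alternatives were DESeq2 1.42.0, RLE normalization, no filter, the likelihood ratio test, a fit of the compared groups by themselves, the replicate number as a block, halved counts and leaving out each library. Figures used matplotlib 3.10.9 in python 3.11.15.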

Additional observations from a re-analysis of the deposited data

Results flagged for a closer look

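The difference between the HH and HHC effects on the eotaxin Ccl24 passed the adjustment in the fit of all libraries, but did not pass under most other settings. Its log2 fold change was 1.88 ± 0.49 (SE) in HH against CC_l and -1.21 ± 0.48 (SE) in HHC against CCC, a difference of -3.09 (adjusted p = 0.0422, edgeR's quasi-likelihood interaction). Both HH mice stood above both CC_l mice and both HHC mice below both CCC mice. The 2 CCC mice stood at 5.62 and 10.2 CPM and the 2 CC_l mice at 2.87 and 2.62 CPM. The difference did not pass the adjustment with RLE normalization (adjusted p = 0.0731), without the filter on low counts (0.118), with only the compared groups (0.307), with the replicate block (0.107), with halved counts (0.0569) and without 15 of the 20 libraries in turn, and it passed with DESeq2 (0.000133) and the likelihood ratio test (0.00673). Its sign was the same throughout. The HHC value was -0.72 without CCC replicate 2.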

How the results depend on the processing

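The counts of members called in H, HC, HH and HHC (7, 5, 14 and 2) and of members with an adjusted p under 0.05 (3, 0, 6 and 0) changed with several settings. Without the filter on low counts they were 11, 8, 16 and 8 called and 7, 4, 13 and 4 adjusted, with DESeq2 8, 7, 17 and 8 and 8, 4, 13 and 2, and with the likelihood ratio test 9, 6, 14 and 4 and 6, 0, 13 and 1. Calls over all genes rose with these settings too. In HC they went from 337 higher and 37 lower to 1702 and 62 without the filter, 649 and 78 with DESeq2 and 910 and 62 with the likelihood ratio test. In HHC they went from 96 and 573 to 380 and 886, 350 and 835, and 201 and 989. In H they went from 766 and 626 to 1121 and 1371, 928 and 1235, and 1068 and 1024. In HH they went from 1055 and 403 to 1461 and 1418, 1399 and 910, and 1313 and 716. Without the filter 34443 genes were tested and not 21464, and counts of all genes at an adjusted p under 0.05 are not given for these settings. With only the compared groups the members called were 6, 3, 15 and 1, and those with an adjusted p under 0.05 were 1, 0, 6 and 0. RLE normalization (7, 5, 13 and 3) and halved counts (8, 5, 13 and 3) changed the calls by at most 1.5 times. Leaving out 1 library gave 4 to 9, 1 to 7, 6 to 15 and 0 to 8 called and 0 to 4, 0 to 0, 0 to 12 and 0 to 1 adjusted.

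Members whose interaction passed (0 for HC against H, 1 for HHC against HH, 0 for HH against H, 0 for HHC against HC) numbered 3, 5, 0 and 1 without the filter (the 5 were Ccl2, Ccl7, Ccl9, Ccl11 and Cxcl12, without Ccl24) and 0, 2, 1 and 0 with DESeq2. For HHC against HH there were 2 with the likelihood ratio test, 0 with RLE normalization, 0 with only the compared groups, 0 with halved counts and 0 to 2 without 1 library. Signs of changes were not followed for members never called in a comparison, Cxcl10 among them, or for the member whose values are not reported. In the other members they were followed for changes at least as large as their SE. Signs of interactions were followed where the nominal p was under 0.05. Among the changes and interactions followed, signs turned without HHC replicate 1. They turned in HHC for Cxcl9 (-0.19 to 3.32 over the left-out libraries), Ccl2 (-0.74 to 1.65) and Ccr2 (-0.92 to 2.07) and for the HHC against HC difference of Cxcl9 (-0.0175 to 3.49). The cause of the changes under these settings was not tested. Leaving out a library changes both the number of samples and the mice compared, and these were not told apart.

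The replicate numbers of the labels were not used as pairs in the main fit. Deviations of same-numbered mice correlated at -0.17, 0.19 and 0.19 (H and C), -0.28, 0.06 and -0.24 (HC and CC_s), -0.19 (HH and CC_l) and -0.26 (HHC and CCC). In groups of 2 mice both numbers give the same value, and differently numbered mice were not compared. A pairing or a shared batch can therefore not be excluded. With the replicate block 6, 3, 12 and 1 members were called, 0, 0, 1 and 0 had an adjusted p under 0.05, and 0 interactions passed for HHC against HH. The calls lost with the block were Ccl7 in H, Ccl6 and Ccl9 in HC, Ccr3 and Cxcl16 in HH and Cxcl9 in HHC. Groups of 2 or 3 mice and low counts (Ccr3, Ccr7, Cxcr3) limit the precision.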

Other observations

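Genes that bind, trim or accompany chemokines without being members also moved. Ackr1, an atypical receptor that carries chemokines across venular endothelium, rose in H (log2 fold change 2.90 ± 0.72 (SE), adjusted p = 0.0462) and HH (log2 fold change 4.29 ± 0.94 (SE), adjusted p = 0.0298). Ackr3, a scavenger of Cxcl12, rose in HH (log2 fold change 2.82 ± 0.58 (SE), adjusted p = 0.0253) and fell in HHC (log2 fold change -2.10 ± 0.56 (SE), adjusted p = 0.224), where endothelial markers were also low. Cmklr1, a receptor of chemerin, was lower in H than in C (log2 fold change -1.90 ± 0.50 (SE), adjusted p = 0.0602), and Gpr1, a further chemerin receptor, rose in HH (log2 fold change 4.01 ± 1.17 (SE), adjusted p = 0.0851). Of the 7 tested genes of this list, 1 was called higher in H, 0 in HC, 3 in HH and 0 in HHC.

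Of the 5 tested proteases that trim chemokines, Mmp2 rose in H (log2 fold change 2.39 ± 0.60 (SE), adjusted p = 0.0491), HC (log2 fold change 1.83 ± 0.59 (SE), adjusted p = 0.536) and HH (log2 fold change 3.79 ± 0.78 (SE), adjusted p = 0.0253). Mmp12, a macrophage elastase that is also on the list of lipid-associated macrophage markers, rose in H (log2 fold change 4.13 ± 1.27 (SE), adjusted p = 0.102) and HC (log2 fold change 5.34 ± 1.35 (SE), adjusted p = 0.529), and Mmp9 fell in H (log2 fold change -2.37 ± 0.66 (SE), adjusted p = 0.0693). Pf4, a platelet chemokine that macrophages also make and whose symbol is outside the rule, rose in HH (log2 fold change 2.45 ± 0.42 (SE), adjusted p = 0.0181). All adjusted p-values come from the quasi-likelihood test of edgeR, by Benjamini-Hochberg.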
